A study of Mus musculus with 2 samples.

Results

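Among the immune cells of the autoimmune stomach, 150 follicular helper-like CD4 T cells were described, of 32372 cells that passed the quality filter and 33173 barcodes in all. They were chosen by rule from raw UMIs (unique molecular identifiers, 1 per captured RNA molecule). A cell needed at least 1 UMI of Cd3d, Cd3e or Cd3g, no UMI of Cd8a, Cd8b1, Foxp3, Cd79a or Ms4a1, and at least 2 detected genes of Cxcr5, Bcl6, Il21, Tox2, Sostdc1, Angptl2 and Il4. Cells that met every condition but the last are called helper-gate cells. There were 5242 of them, and 4244 had none of the 7 rule genes, 848 had 1 and 150 had at least 2.

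All mice were TxA23, a strain with a T cell receptor transgene that develops autoimmune gastritis. The IL-27 library came from 3 females and the PBS library from 1 male and 1 female. Osmotic pumps under the skin held 800 ng of recombinant, covalently linked p28-EBI3 (4 µg/mL, 200 µL), or PBS alone as the sham. They were placed at 3 months of age and carried for 4 weeks. CD45+ cells negative for propidium iodide, a dead cell stain, flushed from the stomach lining were profiled with 10x Genomics 5' chemistry, and each treatment was deposited as 1 library of pooled mice.

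Follicular helper T cells are the CD4 T cells that help B cells in germinal centres, the sites where B cells mutate and select their antibodies. BCL6 sets up their program and represses BLIMP-1, CXCR5 leads them into B cell follicles, and IL-21, IL-4, CD40 ligand and ICOS carry or support the help. On entering the follicle they turn down KLF2 and its target S1PR1, along with CCR7, PSGL-1 and the IL-7 receptor. Cells of this kind also gather around B cells in chronically inflamed tissue, and IL-27 is known to act on T cells through WSX-1 and gp130 and to support IL-21 production.

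Going by the barcode suffixes, 3 wells were loaded for IL-27 and 2 for PBS, and the labels tie no well to a mouse. PBS well 2 stood apart. It held all 3074 UMIs of 4 Y-linked genes (Ddx3y, Uty, Kdm5d and Eif2s3y), and Xist was detected in 3.63% of its cells against 71.0% to 73.0% of the cells of each other well. The wells held 5451 to 7549 cells with median depths of 2763 to 3185.5 UMIs. Any 2 wells shared 46 to 71 barcodes, and 3 of the 150 members had a barcode that also occurred in another well. With 1 library per group no comparison of treatments can be tested, and treatment and sex cannot be told apart in pooled values. Intervals cover counting error only, and wells show the spread within a library. UMIs were summed over cells, so fewer expressing cells and less RNA per cell cannot be told apart unless detection is given.

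The members numbered 30, 34 and 38 in IL-27 wells 1, 2 and 3, and 17 and 31 in PBS wells 1 and 2. They made up 1.93% (exact binomial 95% interval 1.30 to 2.74), 2.87% (1.99 to 3.98) and 3.25% (2.31 to 4.43) of helper-gate cells across the wells of IL-27, 1.91% (1.12 to 3.04) in PBS well 1 and 7.03% (4.83 to 9.83) in the other PBS well. PBS well 2 thus had the highest share of any well, and its interval lay above those of the other 4. PBS well 1 and IL-27 well 1 had the lowest and hardly differed. The share in PBS well 2 was 3.68 times that in PBS well 1 (1.97 to 7.08).

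Pooled, members were 2.61% of IL-27 helper-gate cells and 3.61% of PBS helper-gate cells, a ratio of 0.722 (0.508 to 1.04). Against PBS well 1 alone the ratio was 1.36 (0.811 to 2.43), and against PBS well 2 alone it was 0.371 (0.246 to 0.574). The direction therefore depended on which PBS well was used. Requiring 3 rule genes instead of 2 left 28 members, 23 of them IL-27, and gave a ratio of 1.56. Its PBS side was 4 cells with 3 rule genes and 1 with 4. No interval was computed for it, so no direction is read from it.

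The helper gate itself was small in PBS well 2, at 8.09% of its cells against 20.6%, 19.7% and 16.7% across the IL-27 wells and 14.0% in PBS well 1. As a share of all cells, members were 0.397%, 0.565% and 0.542% across the wells of IL-27, 0.268% in PBS well 1 and 0.569% in the other PBS well. On this denominator PBS well 2 lay beside IL-27 wells 2 and 3, and PBS well 1 was the lowest. The ratio of IL-27 over PBS was 1.22 (0.856 to 1.75), with 1.85 (1.10 to 3.30) relative to PBS well 1 and 0.872 (0.578 to 1.35) relative to the other.

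**Figure D1:**
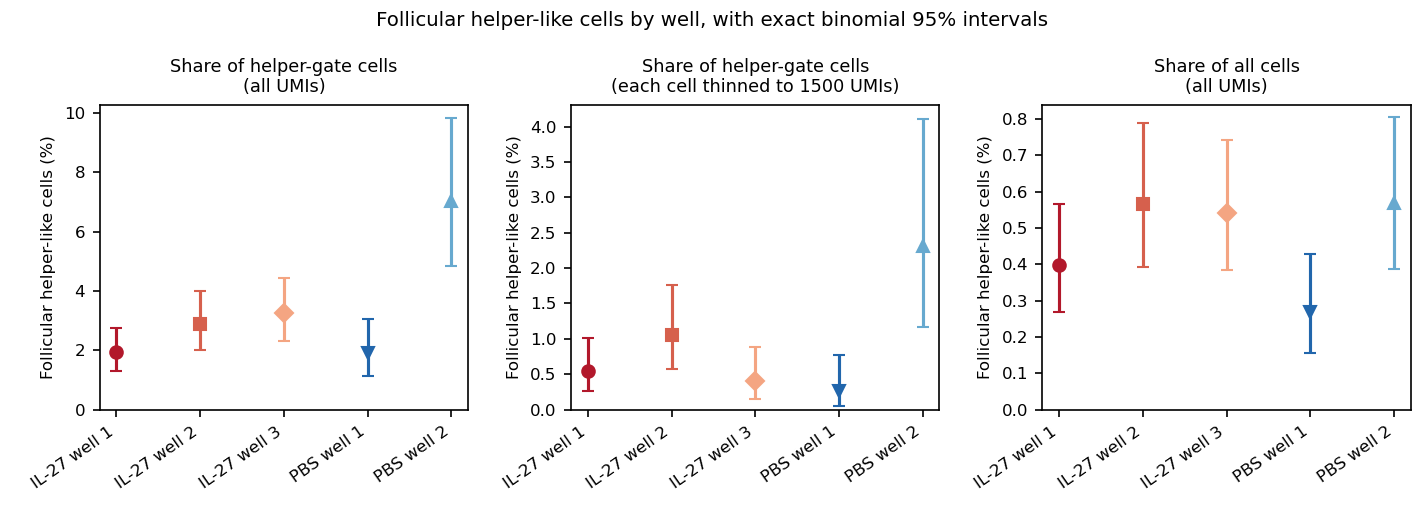
Each point is 1 well with its exact binomial 95% interval; the y axes give members as a percent of helper-gate cells from all UMIs, the same after each cell was thinned to 1500 UMIs, and members as a percent of all cells. PBS well 2 is highest in the first 2 panels, at 7.03% and 2.32%, and level with IL-27 wells 2 and 3 in the last, at 0.569%.

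A rule that asks for detected genes favours deep cells. Median depth was 4410 UMIs in members, 3712.5 in helper-gate cells with 1 rule gene and 3277.5 in those with none. Each cell was therefore thinned to 1500 UMIs and the whole rule applied again, which loosens the gate because UMIs of excluded genes are lost too. It then found 44 members among 6224 helper-gate cells, at 0.550%, 1.06% and 0.410% across the wells of IL-27, 0.263% in PBS well 1 and 2.32% in the other PBS well. PBS well 2 remained the highest and PBS well 1 the lowest. The thinned ratio of IL-27 over PBS was 0.752 (0.387 to 1.54).

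The same count of at least 2 rule genes was also taken in cells outside the helper gate. The count was met by 12 of 2153 CD8 T cells (0.557%, 0.288 to 0.972, at a higher median depth of 5544 UMIs) and 1 of 420 NK cells (0.238%), against 150 of 5242 helper-gate cells (2.86%, 2.43 to 3.35). Among Foxp3-positive T cells, the regulatory lineage that the rule left out, it was met by 16 of 757 (2.11%, 1.21 to 3.41). B cells themselves transcribe Cxcr5 and Bcl6, and 297 of 18771 (1.58%) met the count. After thinning to 1500 UMIs it was met by 0.707% of helper-gate cells (0.514 to 0.948), 6 of 1997 CD8 T cells (95% interval 0.110% to 0.653%) and 0.461% of B cells, so that the intervals of helper-gate and CD8 T cells overlapped. No member was called a doublet by Scrublet, whose call did not work in PBS well 2.

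Cd4, which the rule did not ask for, was detected in 117 of the 150 members (78.0%) and in 44.7% of helper-gate cells with no rule gene. Among helper-gate cells with a Cd4 UMI, members were 3.33%, 4.41% and 4.70% in the 3 wells of IL-27 and 3.12% and 15.6% in the 2 of PBS. PBS well 2 was again the highest, and PBS well 1 was close to IL-27 well 1. On the CPM scale, where depth is divided out, Cd4 stood at 349 CPM in IL-27 members and 315 CPM in PBS members, against 218 and 201 CPM in cells with no rule gene. CPM here is UMIs of a gene per 1000000 UMIs of the summed cells.

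The 7 rule genes chose the cells, so their levels are a description. Cxcr5, the CXCL13 receptor (chromosome 9 at 44511787 to 44561877, GRCm38), was detected in 86 members, and Bcl6, the lineage repressor (chromosome 16 at 23965052 to 23988852), in 65. Tox2, an HMG-box factor of the same program (chromosome 2 at 163203125 to 163324170), was detected in 80. The secreted products were rarer, with 39 members for Angptl2, an angiopoietin-like protein, 26 for Il4 and 23 for Il21, the cytokines of B cell help, and 20 for Sostdc1, an antagonist of BMP and Wnt signals. Of the members, 122 had exactly 2 rule genes, 18 had 3, 9 had 4 and 1 had 5.

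The receptor and the 2 transcription factors accounted for most pairs. Cxcr5 and Bcl6 were the only rule genes in 32 members, Cxcr5 and Tox2 in 30, and Bcl6 and Tox2 in 12. The cytokines and secreted proteins overlapped less with Cxcr5. Only 2 of the 20 members with Sostdc1 also had Cxcr5, while 10 had Angptl2 and 7 had Il21. Il21 and Bcl6 met in 2 members, and Il21 and Il4 in 4. Tox2 was the commonest partner of Il4, in 15 of 26 members. These counts are bound by the rule, since a member without one gene needs others.

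**Figure D2:**
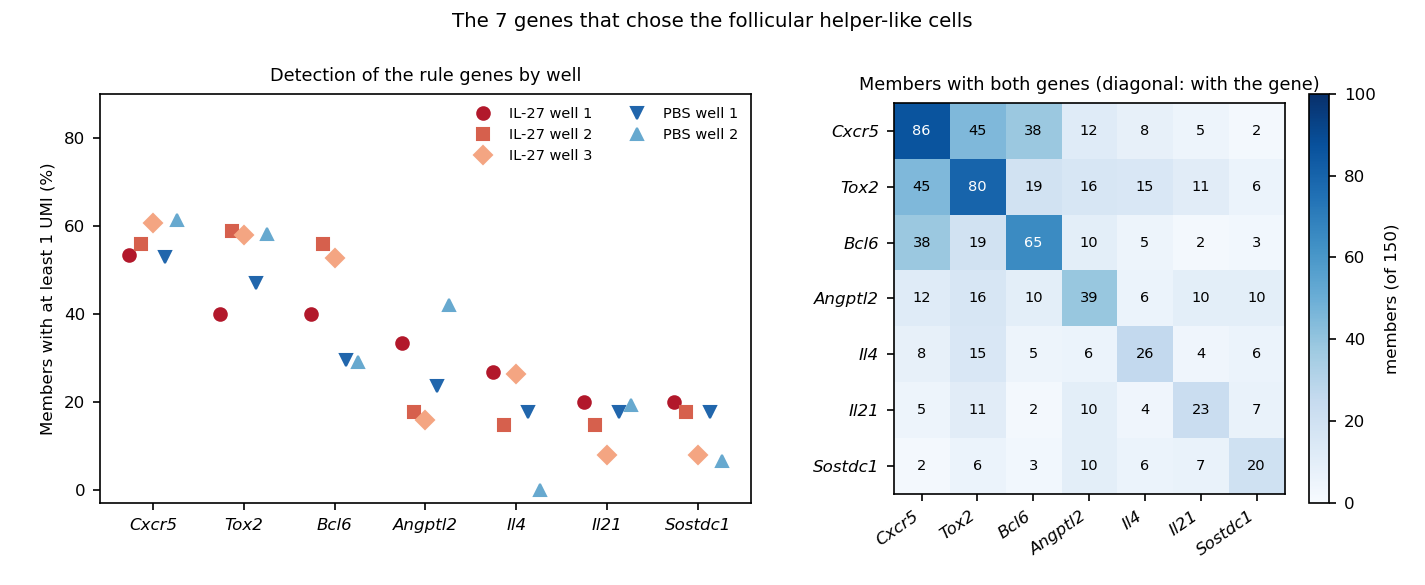
The left panel gives the percent of members with at least 1 UMI of each rule gene, 1 point per well, and the right panel the number of members in which each pair of genes was detected, with single genes on the diagonal. Cxcr5 with Tox2 (45 members) and Cxcr5 with Bcl6 (38 members) are the most frequent pairs, and Il4 is at 0 in PBS well 2.

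Il4 was detected in 8, 5 and 10 members of the IL-27 wells, in 3 of PBS well 1 and in none of the 31 of PBS well 2. Its UMIs numbered 21, 12 and 31, then 6 and 0. Every IL-27 well was above both PBS wells, and members summed to 110 CPM in IL-27 and 21.7 CPM in PBS. Sostdc1 gave 43, 35 and 22 UMIs across the IL-27 wells and 5 in each PBS well, or 172 against 36.2 CPM, and 19 of its 110 UMIs came from 1 cell.

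The whole helper gate was not chosen with these genes, and there Il4 stood at 11.8 CPM in IL-27 and 6.04 CPM in PBS, a ratio of 1.96 (1.34 to 2.95), and Angptl2 at 7.67 against 16.4 CPM, a ratio of 0.467 (0.350 to 0.625). Sostdc1 differed little across the gate, at 7.40 against 6.79 CPM (1.09, 0.741 to 1.64). Cxcr5 was at 23.7 against 22.5 CPM (1.06, 0.855 to 1.31), and Il21 at 2.31 against 3.40 CPM (0.680, 0.373 to 1.28). For Sostdc1, Cxcr5 and Il21 the interval of the ratio includes 1.

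Other genes were compared between members and helper-gate cells with none of the 7 rule genes. Both classes come from the same wells, but in unlike proportions. PBS well 2 held 31 of the 150 members and 328 of the 4244 comparison cells, so summed values mix class with well. Members were also selected from the same cells, so these are descriptions. Of 6226 genes with at least 20 CPM in the higher class and 50 UMIs, 4.72% differed at least 2-fold, with 2.71% higher in members and 2.01% lower. The split of 169 higher and 125 lower genes became 142 and 158 with TMM scaling, and 200 and 223 without mitochondrial, ribosomal protein and receptor genes. Genes of the lists below needed 10 CPM and 20 UMIs, which 8184 genes met. Of those, 3.63% were at least 2-fold higher and 2.91% at least 2-fold lower, 5.47% were higher in every well and 6.99% lower in every well. Log2 ratios are of CPM + 1, and the median over all 8184 genes was 0.05.

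Follicular helper genes that the rule did not use were mostly higher in members. Of 28 listed genes 27 passed the filter. Their median log2 ratio was 0.48, and 8 were at least 2-fold higher and none 2-fold lower. Members were above their own well's comparison cells in every well for 8 genes (Icos, Cd200, Maf, Tnfsf8, P2rx7, Tox, Tbc1d4 and Nt5e). The list's median was 0.43, 0.86 and 0.51 across the wells of IL-27, 0.09 in PBS well 1 and 0.66 in the other PBS well (SD 0.286 over 5 wells), so PBS well 1, with 17 members, showed the smallest difference.

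Maf, a transcription factor that drives IL-21 and IL-4, stood at 156, 239 and 375 CPM in members of the IL-27 wells and 163 and 509 CPM in those of the PBS wells. The comparison cells held 72.6, 79.4, 95.8, 118 and 203 CPM in the same order. Members were higher in 5 of 5 wells, 288 against 98.6 CPM summed (2.92-fold, 2.54 to 3.34). Maf was detected in 80 of the 150 members.

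Tnfsf8, the CD30 ligand, was at 438, 354, 505, 142 and 325 CPM in members against 114, 104, 113, 124 and 94.7 CPM. The summed ratio was 3.32 (2.93 to 3.74), with the narrowest gap in PBS well 1. Tbc1d4, a GTPase-activating protein of vesicle traffic, was higher in 5 of 5 wells, 326 against 126 CPM (2.59-fold, 2.28 to 2.94). Cd200, an inhibitory surface ligand, was likewise higher in each, 408 against 197 CPM (2.07-fold, 1.85 to 2.31).

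The inhibitory receptors that mark these cells were higher in most wells but not all. Pdcd1, which encodes PD-1, was at 208, 256 and 214 CPM in IL-27 members and 149 and 177 CPM in PBS members. Its comparison cells held 96.3, 60.5, 85.0, 98.6 and 192 CPM, so that members of PBS well 2 were slightly below them. Tigit was at 80.7, 163, 192, 35.4 and 229 CPM against 28.3, 26.7, 40.0, 35.7 and 176 CPM. Tigit members of PBS well 1 were level with their comparison cells, and the comparison cells of PBS well 2 were already high.

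Icos, the costimulatory receptor, was at 80.7, 174, 107, 106 and 199 CPM against 59.5, 65.3, 75.1, 59.5 and 114 CPM, higher in 5 of 5 wells (1.89-fold, 1.54 to 2.30). Cd40lg, which licenses B cells through CD40, was at 95.6 against 52.3 CPM summed, but IL-27 well 1 and PBS well 1 were level with their comparison cells. Sh2d1a, the SLAM adaptor SAP needed for lasting T cell and B cell contact, was at 259 against 131 CPM and higher in 4 of 5 wells.

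Several genes of the list showed little difference. Tcf7, an early factor of the lineage shared with naive cells, was at 472 against 471 CPM. Izumo1r, a folate receptor homologue of follicular and anergic T cells, was at 787 against 707 CPM, and Il21r, the IL-21 receptor, at 150 against 151 CPM. Il6ra (68.8 against 84.7 CPM) and Il6st (129 against 165 CPM), which form the IL-6 receptor, and the SLAM receptor Cd84 (99.1 against 125 CPM) were a little lower. Ascl2, a basic helix-loop-helix factor that induces CXCR5, had 12 UMIs in members, all in IL-27 wells, and 1 UMI in the comparison cells. All 12 lay in the 28 members with 3 or more rule genes, and the 122 members with exactly 2 had none.

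**Figure D3:**
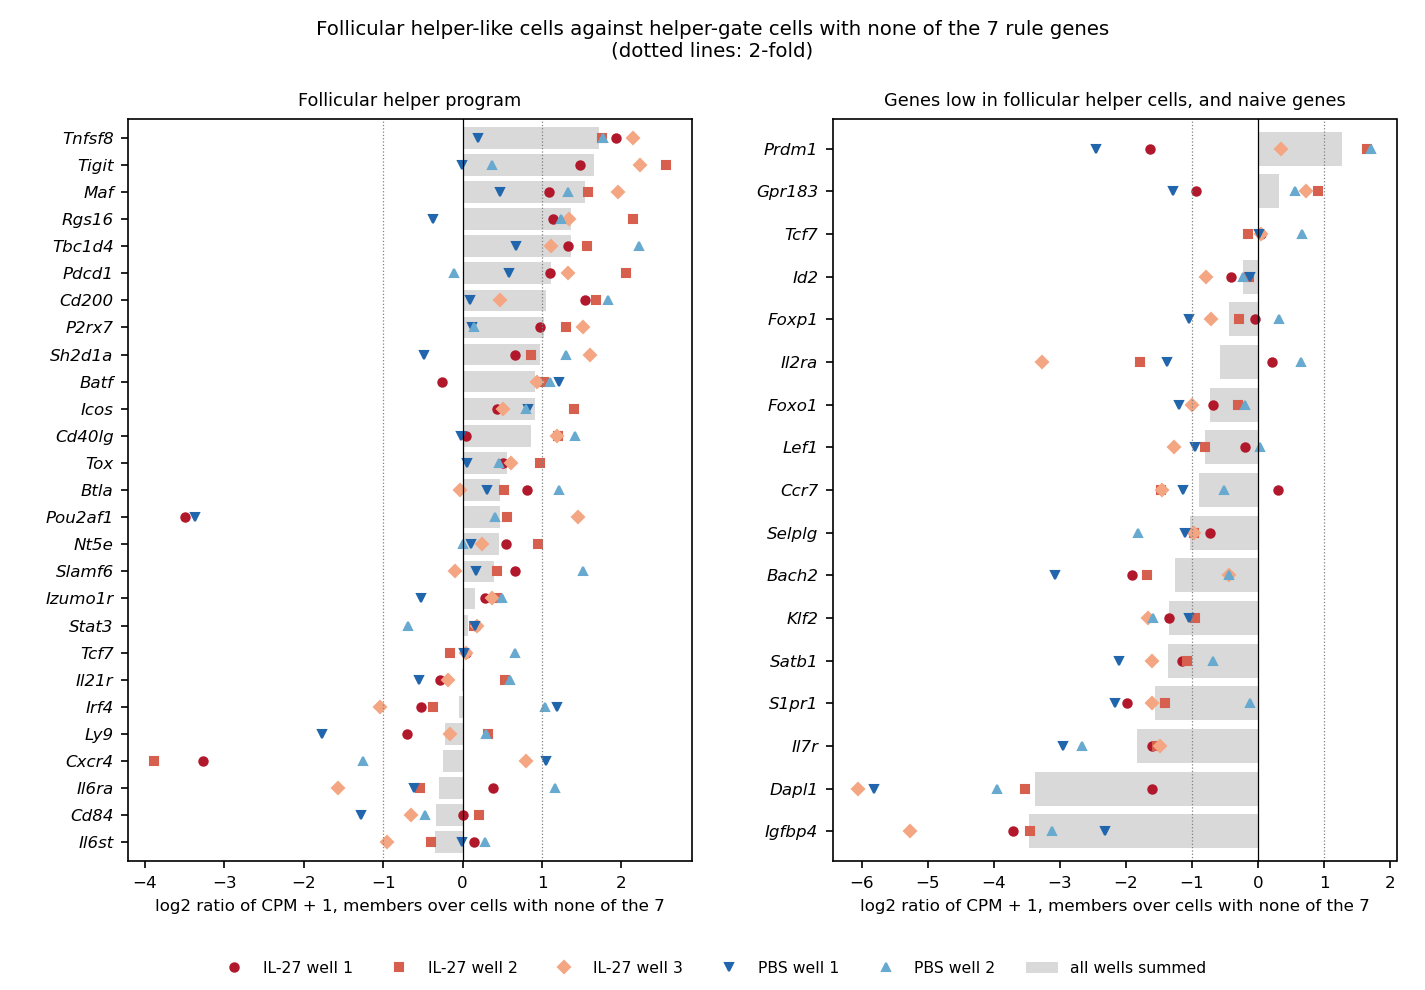
The x axes give the log2 ratio of CPM + 1 of members over helper-gate cells with none of the 7 rule genes, for follicular helper genes on the left and genes low in follicular helper cells or typical of naive cells on the right; bars are all wells summed and points are wells. Tnfsf8, Tigit and Maf have the longest bars to the right on the left panel, and Igfbp4 and Dapl1 the longest to the left on the right panel, while PBS well 1 lies nearest 0 for many follicular helper genes.

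Genes that follicular helper cells turn down were lower in members. Of 10 such genes 5 were at least 2-fold lower, 1 at least 2-fold higher and 6 lower in every well, with a median log2 ratio of -0.96. Klf2, the factor that keeps T cells circulating, was at 190, 267, 183, 213 and 88.6 CPM against 485, 518, 585, 442 and 267 CPM. Members were below in every well. Its target S1pr1, the egress receptor, was at 63.0 against 187 CPM, also lower in every well.

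Il7r, the survival cytokine receptor of naive and memory cells, was at 57.7, 70.7, 58.1, 21.3 and 59.1 CPM against 178, 206, 165, 172 and 379 CPM. The groups of wells did not overlap, but Il7r was not lower than in a second set of comparison cells described below. Selplg, the PSGL-1 gene, was at 195 against 399 CPM, and Ccr7, the receptor that holds T cells in the T zone, at 122 against 227 CPM, lower in 4 of 5 wells. Prdm1, which encodes BLIMP-1, the counterpart of BCL6, was the gene 2-fold higher, at 11.7 against 4.27 CPM. It rested on 10 UMIs in members, and its log2 ratio of 1.26 turned to -2.76 after thinning, which left 44 members. With so few UMIs the size of that change cannot be read. Id2 and Gpr183, the oxysterol receptor EBI2, lay within 2-fold.

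Naive and central memory genes were lower as well. Of 13 measured, 8 were at least 2-fold lower, none 2-fold higher and 9 lower in every well, and the median was -1.34. Igfbp4 and Dapl1, known in T cells as naive genes, were at 29.1 against 334 CPM and 4.66 against 58.0 CPM. Satb1 and Bach2, chromatin and transcription regulators of quiescent T cells, were at 75.8 against 196 CPM and 30.3 against 73.6 CPM, and Lef1 at 173 against 301 CPM.

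The differences grew with the number of rule genes detected, in cells the rule left out as well as in members. Maf was at 98.6 CPM in helper-gate cells with none, 139 with 1, 228 with exactly 2 and 488 (396 to 595) with 3 or more. Tnfsf8 was at 112, 193, 332 and 498 CPM, and Pdcd1 at 94.0, 163, 175 and 307 CPM. Cells with 1 rule gene, just outside the rule, thus lay between those with none and those with 2.

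The genes that are turned down gave the reverse order. Klf2 was at 490, 361, 222 and 95.6 CPM with 0, 1, 2 and 3 or more rule genes, Il7r at 197, 171, 63.7 and 25.1 CPM, and Igfbp4 at 334, 107, 37.9 and 0 CPM. At every step, 12 of the 27 measured follicular helper genes were higher than at the step before and 1 was lower, while 6 of 10 turned-down genes and 12 of 13 naive genes were lower. Over all 8184 genes 984 were higher and 766 (9.36%) lower at every step. Cells with more rule genes were also deeper, with median UMIs of 3277.5, 3712.5, 4376.5 and 5242.5, and the part of depth in these orders was not tested.

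**Figure D4:**
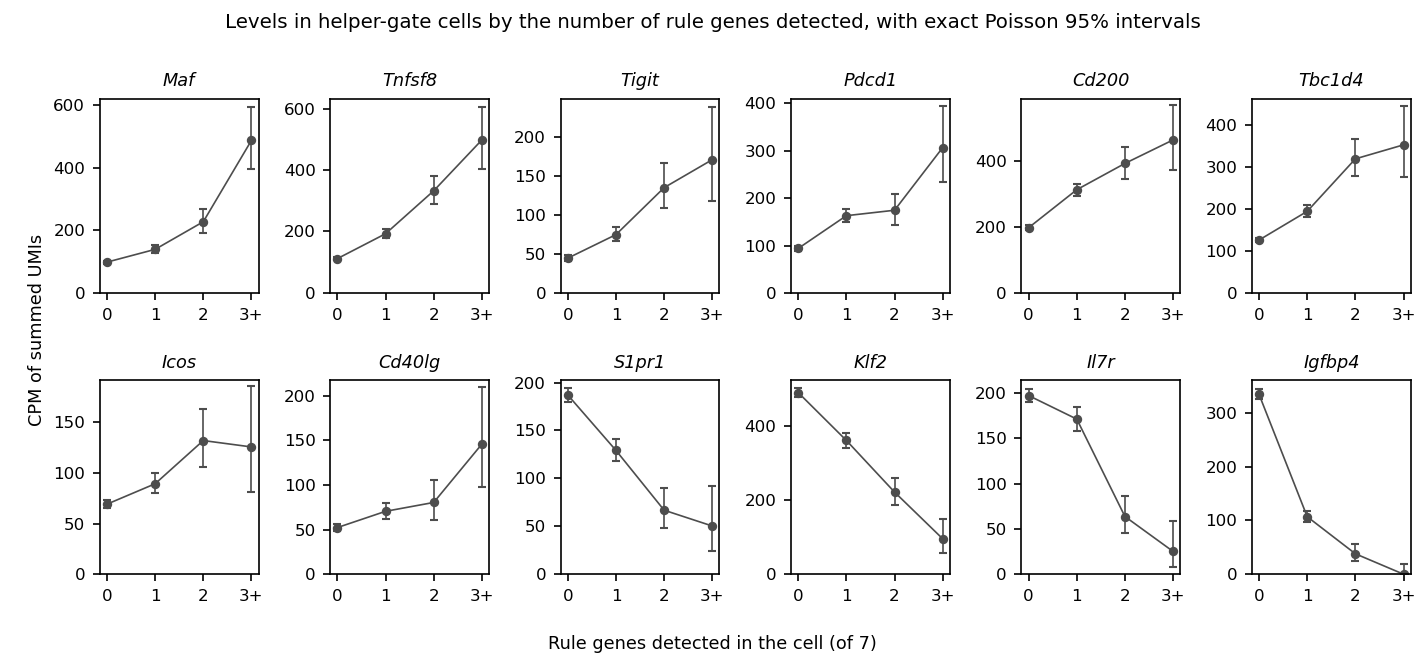
Each panel gives CPM of summed UMIs with exact Poisson 95% intervals for 1 gene in helper-gate cells with 0, 1, 2 and 3 or more rule genes (4244, 848, 122 and 28 cells). Maf climbs from 98.6 to 488 CPM and Klf2 drops from 490 to 95.6 CPM, and Icos is flat between the last 2 classes.

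A second comparison, chosen after the data had been seen, set members against 1189 helper-gate cells that had no rule gene but a UMI of both Izumo1r and Lag3, markers of antigen-experienced and anergic CD4 cells. These were closer in depth, with a median of 3672 UMIs, and PBS well 2 held only 42 of them. The follicular helper list kept a positive median of 0.34, with 5 of 25 measured genes at least 2-fold higher and none 2-fold lower, where 3.32% of 6184 genes were 2-fold higher and 1.52% 2-fold lower. Of the 25 genes, 3 were higher in every well and 1 was lower in every well. Maf was at 288 against 95.1 CPM, Tigit at 143 against 37.0 CPM, Cd40lg at 95.6 against 25.9 CPM and Tnfsf8 at 371 against 141 CPM. Maf and Cd40lg were higher in 5 wells, and Tigit and Tnfsf8 in 4. Members were below these cells for Tigit in PBS well 2, where these cells had 442 CPM. They were also below them for Tnfsf8 in PBS well 1 (142 against 183 CPM). Cd200, at 408 against 354 CPM, hardly differed from these cells. Of the turned-down genes named above, Klf2 (192 against 407 CPM), S1pr1 (63.0 against 154 CPM), Ccr7 and Selplg were lower in members. Il7r (54.8 against 47.7 CPM, ratio 1.15, 0.822 to 1.58), Id2 (163 against 152 CPM), Gpr183 and Prdm1 were not. By well, Selplg was lower in 5, and Klf2, S1pr1 and Ccr7 in 4 each.

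Cytokine and help ligand genes had a median of 0.90 over 10 measured, with 4 at least 2-fold higher. Tnfsf11, which encodes RANKL, was at 104, 190, 188, 56.7 and 148 CPM in members, higher than the comparison cells in 5 of 5 wells (143 against 48.3 CPM summed). Ifng and Csf1 rested on few cells. The 52 UMIs of Ifng, the type 1 cytokine, lay in 13 members and 24 of them in 1 cell, and the 37 of Csf1, the macrophage growth factor, lay in 12 members and 14 in 1 cell. Ltb, the lymphotoxin beta gene, was lower in 5 of 5 wells at 1033 against 1375 CPM, and Il17a, Csf2 and Il5 had no UMI in members.

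Among other T cell programs, of 11 type 1 helper genes 3 were 2-fold higher and 2 lower (median 0.08), and of 10 regulatory T cell genes none passed 2-fold (median 0.07). Of 20 anergy and exhaustion genes 5 were 2-fold higher (median 0.43), namely Pdcd1, Tigit, Nr4a2, Havcr2 and Entpd1. The 2 genes of this list that were higher in every well were Tox and Nt5e. Nr4a2, Havcr2 and Entpd1 rested on 35, 13 and 17 UMIs, detected in 6.0%, 2.67% and 8.0% of members. Pdcd1, Tigit, Tox and Nt5e are also on the follicular helper list, and Lag3 was at 301 against 215 CPM. Ccl5, a chemokine of cytotoxic cells, summed to 1442 against 674 CPM, but its 1237 UMIs lay in 22 members and 512 of them in 1 cell. Ccl5 ranged from 7.09 CPM in PBS well 1 to 3300 CPM in PBS well 2. Nkg7, a cytotoxic granule gene, was at 502 against 226 CPM, and its direction turned after thinning (log2 ratio -0.79).

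Interferon-induced genes were lower in members. Of 27 measured 7 were at least 2-fold lower, none 2-fold higher and 16 lower in every well, with a median of -0.84. Slfn1, a Schlafen family gene, was at 59.5 against 128 CPM, and Isg15, a ubiquitin-like modifier, at 59.5 against 104 CPM. Ifi203, of a family with similar copies that share reads, was at 105 against 223 CPM. Ifi27l2a went the other way, at 2129 against 1689 CPM. Il27ra, the WSX-1 chain of the IL-27 receptor, was at 121, 196, 223, 106 and 148 CPM in members and lower than in the comparison cells in 5 of 5 wells (166 against 237 CPM summed).

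Proliferation genes had a median of 1.26 with 9 of 15 at least 2-fold higher, and they differed by well. At least 2 of 5 cycle genes were detected in 1, 1 and 2 members of the IL-27 wells, 3 of 17 in PBS well 1 and none in PBS well 2, in all 7 of 150 (4.67%) against 47 of 4244 comparison cells (1.11%). The list's median was 2.74 in PBS well 1 and -0.84 in the other PBS well. Between treatments 7 of 14 measured proliferation genes were at least 2-fold lower in IL-27 members (median -1.04), and the direction turned with the control, at -1.84 relative to PBS well 1 and 1.40 relative to PBS well 2.

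B cell, myeloid and gamma-delta T cell markers were lower in members than in the cells they were compared with, and those of several other cells were not. Of 8 measured B cell genes 6 were 2-fold lower, of 6 myeloid genes 5, and of 7 gamma-delta T cell genes all 7. The summed B cell markers were at 222 CPM in members (184 to 310 by well), at 750 CPM in the comparison cells and at 39811 CPM in B cells, and 4 of the 16 were at 0 in members, among them Ebf1 and Cd22. NK cell markers summed to 237 against 197 CPM, with 2 of 4 measured genes 2-fold higher and 2 lower, and ILC2 markers to 110 against 96.1 CPM. Plasma cell markers summed to 76.9 against 67.7 CPM and NKT cell markers to 74.6 against 69.9 CPM. Of the gastric epithelial markers Krt18, a keratin, was measured, at 19.8 against 2.39 CPM on 17 UMIs in members. Their part in the results was not tested. The comparison cells of PBS well 2 held far more, at 3530 CPM for B cell markers, 3064 CPM for myeloid markers and 740 CPM for gamma-delta markers. Those cells are part of every summed comparison above, and their part in the lower genes was not tested beyond the values given by well.

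Of the 6226 genes, 6.39% were higher in members in every well and 7.29% lower in every well. The largest such differences included, beyond those above, Eea1, an early endosome tether, at 169 against 42.5 CPM. Also higher were Ptger2, a prostaglandin E2 receptor (53.6 against 16.2 CPM), Stx11, a syntaxin of vesicle fusion (57.1 against 20.4 CPM), Cd83, an activation marker (83.9 against 30.7 CPM), and Bhlhe40, a transcription factor of activated helper cells (107 against 45.9 CPM). Ece1, the endothelin-converting enzyme, was at 86.3 against 27.9 CPM and Phactr2, an actin regulator, had a log2 ratio of 1.71. Gng2, Smco4 and Bcl2a1d had log2 ratios of 1.26, 1.23 and 1.53, and Bcl2a1d has near-identical copies that share reads.

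The lower end of the same rule was led by genes of other cells. S100a9, a neutrophil gene, had 0 UMIs in members and 958 in the comparison cells, and Gzma, a granzyme of cytotoxic cells, had 2 against 1462 (ratio 0.0246, 0.00298 to 0.0892). Gzma turned to a log2 ratio of 0.36 when a Cd4 UMI was required of both classes. Apoe, Fcer1g, Lyz2, Tyrobp and H2-Eb1, which macrophages and other antigen-presenting cells express, were also among the 10 lowest. The T cell genes among them were Igfbp4, Dapl1 and Cd7, the last at 17.5 against 148 CPM.

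Members with a cytokine transcript were set beside all 150 members, which include them. Those with Il21 (23 cells) had 587 CPM of Maf (474 to 719) and those with Il4 (26 cells) 533 CPM (426 to 659), where all members had 288 CPM. Tnfsf8 was at 777 and 703 CPM in these subsets against 371 CPM in all members, and Cd40lg at 133 and 238 CPM against 95.6 CPM. The 2 cytokine subsets shared 4 cells. Il21 and Il4 are themselves rule genes, and these levels rose with the number of rule genes. Cells with 3 or more had 488 CPM of Maf, 498 CPM of Tnfsf8 and 146 CPM of Cd40lg. The part of that number, or of the wells, in the subsets was not tested. Ccl5, at 1503 CPM in members with Il21, was at 6.27 CPM in those with Il4. Of the 22 members with Ccl5, 12 were in PBS well 2, where Il21 was detected in 6 members and Il4 in none. Well and cytokine therefore cannot be told apart for Ccl5.

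Antigen receptor segments were counted by detection. Trbv13-2, a beta chain variable segment, was detected in 31 members (20.7%, 14.5 to 28.0), in 12.8% of helper-gate cells with no rule gene (11.8 to 13.8), in 16.9% of Foxp3-positive T cells (14.3 to 19.8), in 17.6% of CD8 T cells (16.1 to 19.3) and in 0.112% of B cells. The interval in members overlaps those of Foxp3-positive and CD8 T cells. As a share of beta segment UMIs, Trbv13-2 was 11.7% in members and 9.81% in cells with no rule gene, and it was lower in members in IL-27 well 3 (6.45% against 9.83%) and PBS well 1 (4.31% against 9.49%). Trbv19 was detected in 12 members, and Trav4-3 and Trav4-4-dv10, of a family with duplicated segments that can share reads, in 14 each. Trbv1 was the most frequent, in 80.7% of members (73.4 to 86.7, median depth 4410 UMIs), but it was also detected in 72.4% of B cells (median depth 2803 UMIs). Trav14d-3-dv8 was likewise detected in 37.3% of members and 21.3% of B cells. The source of these transcripts in B cells was not tested, and nothing is drawn from either gene.

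Treatments were compared within members. Of 3388 genes with at least 50 CPM in the higher group and 20 UMIs, 5.87% differed at least 2-fold, with 3.01% higher in IL-27 and 2.86% lower. All 3 IL-27 wells lay above both PBS wells for 13.0% of genes and below both for 8.09%. The median log2 ratio over all these genes was 0.02. None of these differences was tested.

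The follicular helper list had a median of 0.29 over 23 measured genes, none 2-fold higher in IL-27 and 1 (Irf4) 2-fold lower. It was 0.71 when PBS well 1 was the control and 0.01 when PBS well 2 was, and 0.02 in helper-gate cells with no rule gene. The pooled SD of the wells' medians was 0.275. Every IL-27 well was above both PBS wells for 8 of the 23 genes (Pdcd1, Tcf7, Tnfsf8, Stat3, P2rx7, Cd84, Tox and Izumo1r) and below both for Batf.

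Izumo1r was at 963, 952 and 898 CPM in the 3 wells of IL-27 and 560 and 391 CPM in the 2 of PBS, 934 against 477 CPM summed (1.96-fold, 1.62 to 2.39). Tnfsf8 was at 438, 354 and 505 CPM against 142 and 325 CPM. For Maf the wells overlapped, since PBS well 1 (163 CPM) was near the lowest IL-27 well and PBS well 2 (509 CPM) above the highest, and the sums were 267 against 333 CPM. Icos overlapped likewise, at 120 against 152 CPM.

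Interferon-induced genes had a median of 0.34 over 13 measured, with 3 at least 2-fold higher in IL-27 members and none 2-fold lower. It was 0.48 when PBS well 1 was the control and 0.098 when PBS well 2 was. Every IL-27 well was above both PBS wells for 5 of them and below both for none. Isg15 was at 40.4, 87.0 and 93.8 CPM in the 3 wells of IL-27 and 21.3 and 29.5 CPM in the 2 of PBS, a ratio of 2.99 (1.34 to 7.87). Irf7, the transcription factor of the type I interferon response, was at 60.2 against 10.8 CPM on 3 PBS UMIs (5.55-fold, 1.75 to 28.2). In helper-gate cells with no rule gene the list's median was -0.05. The difference between those cells and members in this respect was not tested.

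The IL-27 receptor and signalling list had a median of 0.29 over 7 measured genes, none 2-fold apart, and every IL-27 well was above both PBS wells for 1 of them, Stat3. Il27ra was at 121, 196 and 223 CPM in the 3 wells of IL-27 and 106 and 148 CPM in the 2 of PBS, and Socs1, a feedback inhibitor, at 80.7, 131 and 138 against 92.2 and 310 CPM. The wells overlapped for both genes.

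Rule genes aside, the gene chosen for the highest ratio of IL-27 over PBS among those with at least 100 CPM and wells apart was Itm2a, a membrane protein of activated T cells. It was at 150, 190 and 192 CPM in the 3 wells of IL-27 and 56.7 and 22.1 CPM in the 2 of PBS, a ratio of 4.50 (2.41 to 9.29). Its detection overlapped, at 40.0%, 41.2% and 31.6% of members in the IL-27 wells and 35.3% in PBS well 1. Only PBS well 2 was lower, at 9.68%, and 17 of the 115 UMIs came from 1 cell. In helper-gate cells with no rule gene Itm2a was at 166 CPM in IL-27 and 134 CPM in PBS. Ikzf2, which encodes Helios, was at 381, 392 and 442 CPM against 163 and 162 CPM, where comparison cells had 331 and 296 CPM. Cd27, a costimulatory receptor, was at 231, 234 and 420 CPM against 56.7 and 185 CPM. The remaining genes were Plaa, Cenpa, Dnah8, Pold4, Vgll4, Sharpin and Gramd1a, with log2 ratios of 1.78 to 1.08, of which Plaa and Vgll4 turned negative after thinning.

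At the lower end stood Rasgrp2, an activator of RAP1 in integrin signalling, at 34.6, 27.2 and 8.93 CPM in the 3 wells of IL-27 and 227 and 81.2 CPM in the 2 of PBS. Its log2 ratio was -2.74, while cells with no rule gene had 130 against 119 CPM. S100a6, a calcium-binding protein, was at 108 against 517 CPM, but 65 of its 206 UMIs came from 1 cell. In cells with no rule gene it was at 149 CPM in IL-27 and 608 CPM in PBS. Most of that gap came from PBS well 2, at 1463 CPM. PBS well 1 had 188 CPM and the IL-27 wells 143, 170 and 137 CPM. Cxcr6, a tissue-homing receptor, was at 25.8 against 116 CPM on 47 UMIs in 14 members, 12 of them in 1 cell. With 3 rule genes required, the log2 ratios turned to 2.72 for S100a6, 5.46 for Cxcr6 and 0.36 for Dok2, a docking protein. That rule left 28 members, few of them PBS, so the size of these values cannot be read. Grb2, Hpf1, Nsmce4a, Rpa1 and Ly6e were also lower, at -1.26 to -0.99.

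**Figure D5:**
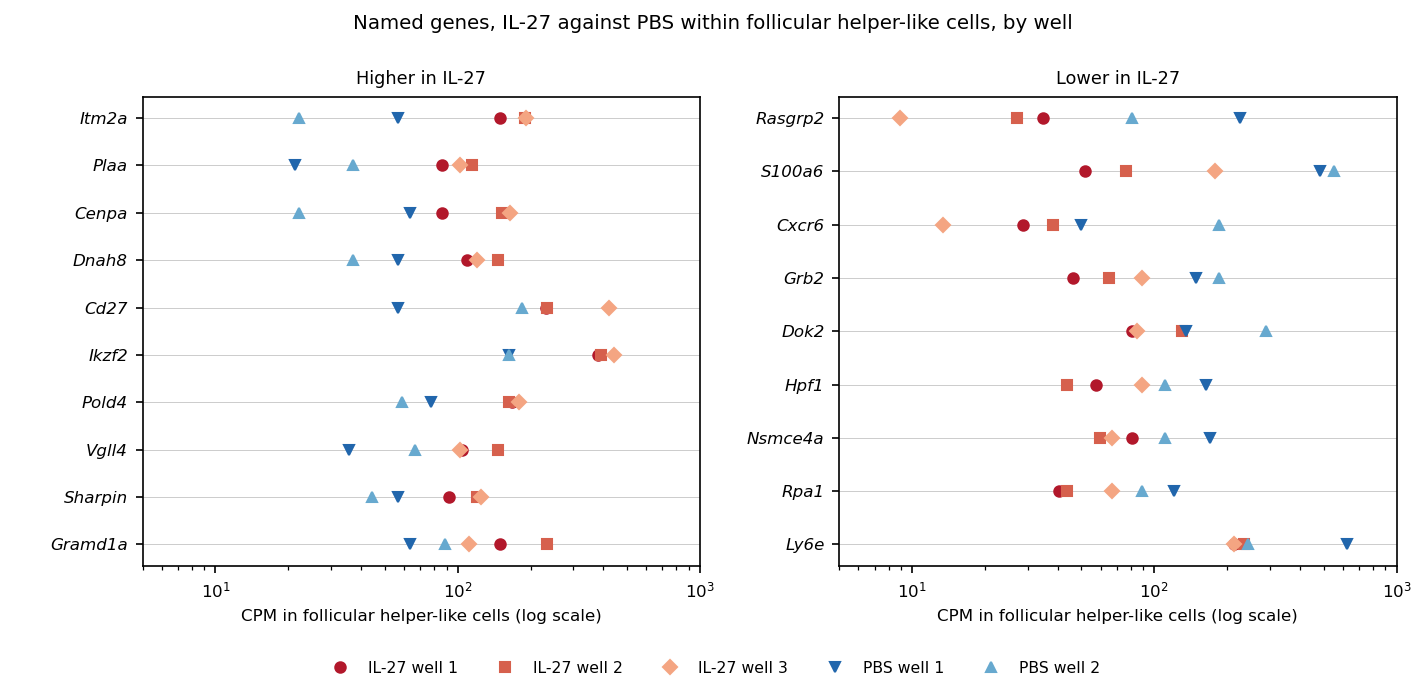
CPM in follicular helper-like cells on a log axis for the named genes highest and lowest in IL-27 against PBS, with 1 point per well. For Itm2a the 3 IL-27 wells sit between 150 and 192 CPM and the PBS wells at 56.7 and 22.1 CPM; the genes were chosen so that IL-27 and PBS wells do not overlap.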

How the data were processed

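The values the authors deposited are raw UMI counts, per the file headers, and every value was a whole number. Per the submitters' processing notes they used Cell Ranger 3.0.0 and mm10, while the headers name software version 3.1.0. GENCODE M21 (GRCm38) held 31011 of the 31053 gene IDs. Cells needed at least 200 genes and at most 10% mitochondrial UMIs. The IL-27 library had 20897 barcodes and 80121995 UMIs, the PBS library 12276 and 43501501. UMIs were summed per class and divided by all UMIs of the class to give CPM, and log2 ratios used a pseudocount of 1 CPM. Intervals of 95% were exact (Poisson for sums, binomial for shares, conditional for ratios). Those of gene ratios were also run on simulated Poisson sums. That simulation shares the model of the intervals, so it could not test them for UMIs that lie in few cells. With 1 library per group no p-value was computed. A difference was counted from 2-fold.

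Named genes were members of 26 lists, the 15 highest and 10 lowest ratios with at least 50 CPM, 100 UMIs and 1 direction in every well, and the 10 highest and 10 lowest between treatments with at least 100 CPM, 20 UMIs and no overlap of wells; rule, receptor, sex-linked, mitochondrial, ribosomal protein and unnamed genes were left out. A few genes that this rule names and 1 alternative choice of cells are not reported here. The rule, members and lists were chosen with earlier results of these data known. Doublets were called by Scrublet in scanpy 1.11.5 and removed only as an alternative. Other alternatives changed the cell filter, the rule, depth, scaling (TMM by edgeR 4.0.16), pseudocount, minimum level and wells. Python 3.11.15, numpy 2.4.6, pandas 2.3.3, scipy 1.17.1 and matplotlib 3.10.9 were used.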

Additional observations from a re-analysis of the deposited data

How the results depend on the processing

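The alternatives were a stricter cell filter, Scrublet calls left out, other rules, thinning, other scaling, pseudocount and minimum levels, equal weight of wells, and each well left out. Of 66 results for members against helper-gate cells with no rule gene, 41 were past 2-fold, and 37 of these had 1 sign under every alternative run. Of 47 results for IL-27 against PBS, 21 were past 2-fold and 15 had 1 sign throughout. Both sets include genes named for large ratios with 1 direction in every well or with no overlap of wells. For those genes a kept sign was partly fixed by that choice, so these counts do not measure how robust they are. The cause of the changes below was not tested.

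With at least 3 rule genes (28 members) the ratio of the member share of IL-27 over PBS moved from 0.722 to 1.56, the count of genes at least 2-fold apart from the comparison cells from 294 to 1244 and that between treatments from 199 to 383. The follicular helper median moved from 0.48 to 0.85 against the comparison cells and from 0.29 to 1.00 between treatments. S100a6 turned to 2.72, Cxcr6 to 5.46 and Dok2 to 0.36 between treatments, without a minimum level and on few PBS members. With at least 2 of the 5 markers (113 members) 326 genes were apart between treatments, and S100a6 turned to 1.63. With a Cd4 UMI required (117 members) Gzma turned to 0.36 against the comparison cells.

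Thinning to 1500 UMIs (44 members) gave 1941 genes apart from the comparison cells and 38 between treatments. Against the comparison cells Prdm1 turned to -2.76 and Nkg7 to -0.79. Between treatments Plaa turned to -0.10, Vgll4 to -0.51, S100a6 to 2.05 and Cxcr6 to 5.51. The thinned members were 30 of IL-27 and 14 of PBS, and no minimum level was applied to these single genes. Prdm1 and Cxcr6 had only 10 and 47 UMIs in members before thinning, so the size of their turned values cannot be read. Scaling without mitochondrial, ribosomal protein and antigen receptor genes gave 352 genes apart between treatments. A pseudocount of 10 CPM gave 179 from the comparison cells and 127 between treatments, and 0.5 times the CPM and UMI minimum gave 535 and 688.

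Leaving out 1 well in turn gave a member share ratio of 0.371 (without PBS well 1) to 1.36 (without PBS well 2), 248 to 548 genes apart between treatments (401 without PBS well 1, 548 without PBS well 2), and a follicular helper median between treatments of 0.080 (without PBS well 1) to 0.71 (without PBS well 2), with the filter on low values applied again to the remaining wells, so that the genes measured can differ from those of the report. With 150 members, depth limits genes of few UMIs. No paired analysis was possible because each group is 1 library and replicate numbers come only from accession order.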
